A study of Mus musculus with 6 samples.

Results

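Satellite cells are the muscle stem cells that lie between a fiber and its sheath, and 10 genes that mark them were followed in chromatin from whole muscle. They are the transcription factor genes Pax7 and Pax3, the surface and adhesion genes Cdh15, Vcam1, Itga7 and Sdc4, the receptor genes Calcr and Met, and the Notch target genes Heyl and Hey1. They were taken by name as 10 of the 21911 protein-coding genes annotated on the 19 autosomes, X and Y, and the rule uses no measured value, although earlier results of these data were known when they were chosen. For each gene, every region acetylated at lysine 27 of histone H3 (H3K27ac) and every Maf peak was collected that touched the gene or lay within 50 kb of one of its transcript starts.

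The nuclei came from gastrocnemius and quadriceps of wild-type mice aged 2 months, and all 6 samples share this tissue, genotype and age. Chromatin immunoprecipitation and sequencing (ChIP-seq) was made with an antibody against H3K27ac in 2 samples and against Maf, a bZIP transcription factor, in 2 samples, while 2 inputs were not used here. The labels name the samples of a target as biological replicates, and the number of mice behind each is not given in the sources used here. There is no treatment or second genotype, so the comparison is between genes and between replicates, and no test between conditions could be made. The H3K27ac lists held 44887 regions in replicate 1 and 44987 in replicate 2. The Maf lists held 74 and 5467 peaks, and every Maf peak described below comes from replicate 2 alone. The lists give positions with no read depth, and the strength of a region is therefore unknown.

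Pax7 is the transcription factor on which the adult satellite cell pool depends, and Pax3, its relative, acts in the embryonic precursors and in a subset of the adult cells. Notch signalling keeps satellite cells quiescent, and Hey1 and Heyl are among the genes it switches on. H3K27ac is laid down at active promoters and enhancers. Satellite cells are a small minority of the nuclei of a muscle. Several of these genes are also used by other cells of muscle, such as Itga7 by the fibers, Vcam1, Hey1 and Heyl by vessel cells and Sdc4 and Met by many cell types. In bulk chromatin, fewer cells of a type and less mark per cell cannot be told apart, and neither can the cell type from which a region came.

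Stretches of sequence are shown first because the descriptions below refer to them. The first is the middle of the part of a Pax7 intron that was acetylated in both replicates, away from the promoter (chr4:139797438-139797737, GRCm38, plus strand, with CANNTG E-boxes, the letters that myogenic helix-loop-helix factors recognise, in capitals). The second is the Maf peak in an intron of Met (chr6:17492599-17492879, GRCm38, plus strand, CANNTG in capitals). The third is the place within the Maf peak of Sdc4 (chr2:164425381-164425661) that holds TGCTGA, the core of the Maf half-site, printed on the plus strand so that the capitals read TCAGCA. The last are the 250 bases before a transcript start of Sdc4, whose promoter was marked, and of Calcr, whose promoter was not, with CG in capitals. These come from the RefSeq promoter table of GRCm38.p6, from the entries at chr2:164443139-164443438 and chr6:3763574-3763873, both on the minus strand.
Pax7 intron: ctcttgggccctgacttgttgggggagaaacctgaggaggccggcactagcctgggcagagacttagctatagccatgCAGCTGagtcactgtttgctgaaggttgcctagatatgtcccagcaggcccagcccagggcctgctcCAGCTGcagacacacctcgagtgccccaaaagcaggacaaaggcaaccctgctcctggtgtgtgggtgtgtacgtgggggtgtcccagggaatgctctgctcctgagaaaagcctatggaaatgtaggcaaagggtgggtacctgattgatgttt
Met Maf peak: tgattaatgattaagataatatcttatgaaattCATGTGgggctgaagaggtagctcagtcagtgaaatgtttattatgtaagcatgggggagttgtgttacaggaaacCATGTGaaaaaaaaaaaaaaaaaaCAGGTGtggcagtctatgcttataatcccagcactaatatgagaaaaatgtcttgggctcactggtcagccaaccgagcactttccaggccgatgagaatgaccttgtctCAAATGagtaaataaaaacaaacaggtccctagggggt
Sdc4 Maf site: cagtgtgagcttTCAGCActtcaccccgcc
Sdc4 promoter: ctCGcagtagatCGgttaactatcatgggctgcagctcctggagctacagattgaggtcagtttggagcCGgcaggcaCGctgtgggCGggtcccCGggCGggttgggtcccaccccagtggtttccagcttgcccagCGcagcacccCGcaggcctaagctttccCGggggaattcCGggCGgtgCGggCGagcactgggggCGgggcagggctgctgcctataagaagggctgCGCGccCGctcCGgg
Calcr promoter: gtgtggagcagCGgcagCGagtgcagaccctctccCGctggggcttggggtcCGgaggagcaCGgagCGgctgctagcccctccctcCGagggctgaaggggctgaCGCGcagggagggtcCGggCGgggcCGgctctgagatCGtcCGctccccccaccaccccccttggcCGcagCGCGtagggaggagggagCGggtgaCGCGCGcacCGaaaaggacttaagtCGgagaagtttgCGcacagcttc

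H3K27ac lay within 1 kb of a transcript start in 9 of the 10 genes, and in the same 9 in each replicate alone. Over all protein-coding genes the share was 59.6% with the replicates merged and 56.4% when a region was required in replicate 1 and in replicate 2. Calcr was the exception. The 9 genes are also the ones with any H3K27ac in the window, against 79.6% of all genes. With the replicates merged there were 46 regions in the 10 windows, from 501 to 13627 bp long. Of these, 31 (67.4%) were called in both replicates, 8 in replicate 1 only and 7 in replicate 2 only. Over the whole list, 35210 of 52540 regions (67.0%) were in both. The regions around the satellite cell genes were thus called about as often in both replicates as regions elsewhere.

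**Figure D1:**
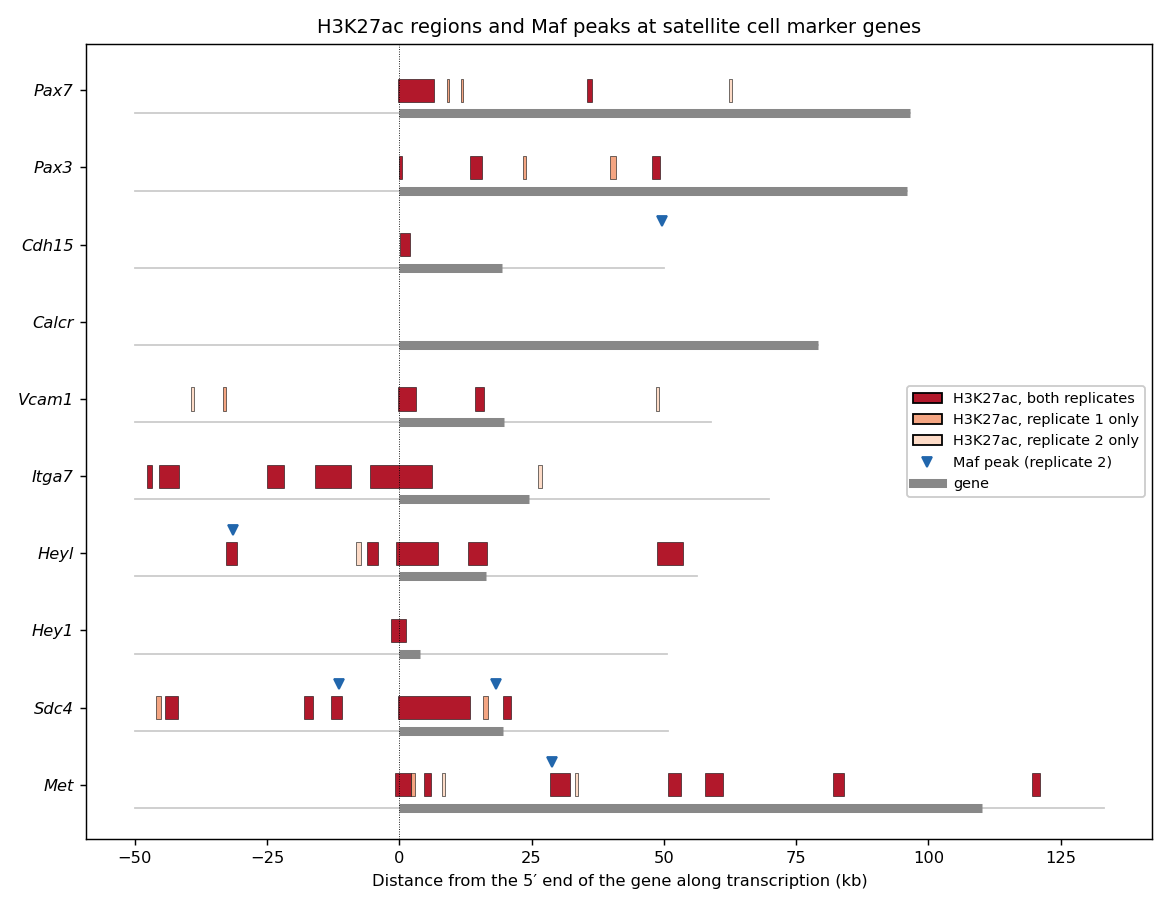
Each row is a gene, drawn along transcription with its 5′ end at 0 and distance in kb on the horizontal axis, with H3K27ac regions as boxes coloured by the replicates that called them, Maf peaks of replicate 2 as triangles, the gene as a thick line and the window as a thin line. Boxes in both replicates sit at the start of 9 genes, the row of Calcr is empty, and Itga7, Heyl and Sdc4 have further boxes upstream of the gene.

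Of the 46 regions, 10 lay at a promoter of these genes, 2 of them at Met. The centre of 23 lay in an intron of the gene itself, of 4 in one of its exons, of 10 in another protein-coding gene and of 9 between protein-coding genes. Measured from the centre of the region, the nearest transcript start was that of the marker gene for 34 regions and that of a neighbouring gene for 12. Here and below, a whole region goes to the gene with the start nearest to its centre, even where it also covers another start. The median length was 1784 bp, beside 1446 bp for all regions. Regions in both replicates had a median of 2407 bp and those in a single replicate 626 bp, so the regions on which the replicates differed were mostly short ones. These are lengths after merging, which can only lengthen a region called in both. A longer call is also likelier to meet a call of the other replicate.

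Pax7 (chr4:139737062-139833528, minus strand) held the mark over its start and in its introns. A region of 6840 bp (chr4:139826991-139833830) covered the 5′ end and ran into the gene. The longest piece of it was 4366 bp in replicate 1 and 4880 bp in replicate 2, longer than the promoter region of 90.0% and 90.9% of all genes, where a gene without one counts as 0. The covered length in the window of 146 kb was 7.32 kb in replicate 1 and 7.14 kb in replicate 2, or 7.23 kb ± 0.129 (SD, n = 2). The totals were close but the positions less so, since 5.18 kb, 55.8% of the merged length, was in both lists. The other 4 regions were intronic. Only the region 35.9 kb inside the gene, whose middle is printed above, was called by both, over 629 bp in replicate 1 and 782 bp in replicate 2. Its printed 300 bases hold 2 CANNTG, both spelled CAGCTG, 1 TGCTGA and 1 TCAGGTT, the letters of the MEF3 box of muscle promoters. No Maf peak lay in the window, and the nearest was 332 kb away. The length at the promoter was thus high among genes, while the share of the long window, 6.34% with the replicates merged, was higher than that of 54.0% of genes.

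Pax3 (chr1:78101267-78197134, minus strand) had a much shorter region at its start, of 501 bp in each replicate (chr1:78196543-78197136 when merged). That length was above the promoter region of 42.6% of genes in replicate 1 and 42.4% in replicate 2, where genes without such a region count as lower. Only 59.6% of all protein-coding genes had such a region with the replicates merged, so most genes ranked below Pax3 had none. These percentiles therefore do not place Pax3 in the middle of the genes with a marked promoter. The covered length of Pax3 was 5.79 kb in replicate 1 and 2.48 kb in replicate 2, with a mean of 4.13 kb ± 2.34 (SD, n = 2). This was the least repeatable gene of the set in covered length, with 40.5% of its merged length in both lists. Most of the mark lay in introns. A region of 2126 bp in replicate 1 and 1318 bp in replicate 2 stood 14.5 kb inside the gene, and one of 1480 bp and 658 bp stood 48.6 kb inside. Intronic regions of 1042 and 642 bp were called in replicate 1 only. The nearest Maf peak was 229 kb away.

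Between the pair of Pax genes, the mark at the start was 4366 and 4880 bp for Pax7 and 501 bp in both replicates for Pax3. The gap was far wider than the replicate spread of Pax7. A length of 501 bp is the shortest in the 10 windows and recurs at Pax7, Vcam1 and Met. The equal values at Pax3 are therefore no measure of its spread. The covered lengths of the whole windows, 7.14 to 7.32 kb and 2.48 to 5.79 kb, did not overlap, although Pax3 in replicate 1 came near to Pax7.

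Cdh15 (chr8:122847966-122867397, plus strand) encodes M-cadherin, which holds satellite cells to the fiber. It had a single region, which began downstream of the start (chr8:122848180-122849953) and measured 1774 bp in replicate 1 and 1017 bp in replicate 2. The covered length was 1.40 kb ± 0.535 (SD, n = 2), and the share of the window, 1.77% merged, was above that of 30.0% of genes. The remainder of the window, 100 kb wide, was unmarked in both replicates.

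Vcam1 (chr3:116109949-116129688, minus strand) encodes a cell adhesion molecule of satellite cells and of inflamed endothelium. The region at its start (chr3:116126547-116129871) measured 2828 bp in replicate 1 and 3226 bp in replicate 2. A second region lay over a coding exon 15.1 kb inside, with 1829 and 1561 bp. The 3 others, of 501, 626 and 501 bp, lay between genes and were each called in 1 replicate. The covered length was 5.28 kb in replicate 1 and 5.79 kb in replicate 2.

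Itga7 (chr10:128933818-128958282, plus strand) encodes the integrin α7 chain, a laminin receptor of satellite cells and of fibers. The region over its start ran to both sides (chr10:128928208-128939913) and measured 11489 bp in replicate 1 and 11505 bp in replicate 2, longer than the promoter region of 98.4% and 98.0% of genes. The window held 23.9 kb of marked sequence in replicate 1 and 27.1 kb in replicate 2, the most of the set in both. Only the region at the start, 11.7 kb with the replicates merged, was nearest to Itga7 itself. The other 5 regions were nearest to Gdf11, Cd63, Rdh5 and Mettl7b. The window holds the starts of 6 other protein-coding genes, of which Bloc1s1, Cd63, Gdf11, Mettl7b and Rdh5 were marked at the promoter.

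Sdc4 (chr2:164424247-164443887, minus strand) encodes syndecan-4, a heparan sulfate proteoglycan that serves as a co-receptor for growth factors. It had the longest region of the set (chr2:164430510-164444136, 13627 bp). In replicate 2 it was a single call of 13627 bp, and in replicate 1 it was 2 calls that together covered 11628 bp, of which the one at the start had 3171 bp. The length of the call at the start therefore differed widely between replicates, while the covered length of the window did not, at 20.5 kb and 21.3 kb. The regions nearest to Sdc4 added up to 14.6 kb. The others were nearest to Matn4, Sys1 and Dbndd2, and of 6 neighbours with a start in the window Sys1, Gm20458 and Dbndd2 were marked at the promoter.

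**Figure D2:**
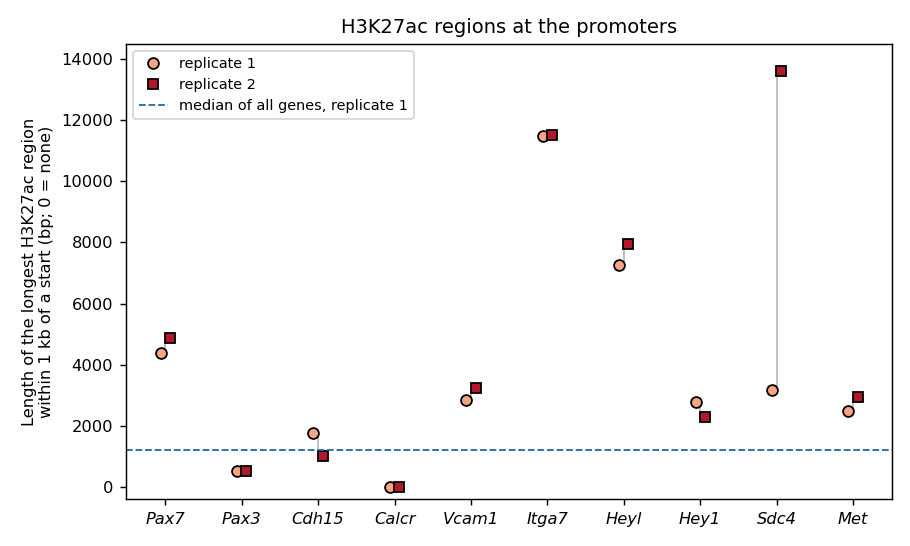
The length in bp of the longest H3K27ac region within 1 kb of a start of each gene is shown for replicate 1 (circles) and replicate 2 (squares), with the replicate 1 median of all protein-coding genes as a dashed line at 1190 bp. Pax7, Vcam1, Itga7, Heyl, Hey1, Sdc4 and Met lie above the line in both replicates, Pax3 and Calcr below it, and Cdh15 falls on both sides.

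Calcr (chr6:3685680-3764714, minus strand) encodes the calcitonin receptor, which quiescent satellite cells carry and which holds them in quiescence. No H3K27ac region lay in its window of 129 kb in replicate 1 or in replicate 2. The nearest one was 131678 bp away and the nearest Maf peak 1491063 bp away. The gene has 4 annotated transcript starts, and the RefSeq table gives a pair of promoters for it. The one printed above has 24 CG in 250 bases and a GC content of 70.0% over its 300 bases, and its CpG observed over expected ratio was 0.798. Its marked counterpart, the Sdc4 promoter, has 19 CG in 250 bases and a ratio of 0.645, beside a median of 0.389 over all promoters. The second Calcr promoter (chr6:3764664-3764963), at the annotated 5′ end of the gene, is poor in CG, with 2 CG in 250 bases, a GC content of 47.3% and a ratio of 0.240. Neither Calcr promoter had a called region in either replicate, and the Sdc4 promoter had one in both.

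Met (chr6:17463800-17573980, plus strand) encodes the receptor of hepatocyte growth factor, which activates satellite cells. Its 10 regions were the most of the set, and for all of them a start of Met was the nearest. The region at the 5′ end (chr6:17463047-17465988) measured 2467 bp in replicate 1 and 2922 bp in replicate 2. A second region at an internal transcript start 83.0 kb downstream (chr6:17545832-17547845) measured 1737 and 2014 bp. Between them stood intronic regions of 1370, 3737, 2407 and 3376 bp, each called in both replicates. Shorter ones there were called in a single replicate. The covered length was 17.0 kb in replicate 1 and 16.9 kb in replicate 2, or 16.9 kb ± 0.105 (SD, n = 2). The length nearest to Met, 19.1 kb merged, was above that of 94.9% of genes, the highest percentile of the set by this measure, in which long genes with many starts can gather more regions.

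Heyl (chr4:123233556-123249875, plus strand) and Hey1 (chr3:8663359-8667256, minus strand) encode helix-loop-helix repressors downstream of Notch. At Heyl the region over the start (chr4:123232872-123240833) measured 7250 bp in replicate 1 and 7962 bp in replicate 2, above 95.7% and 95.9% of genes. A region of 3353 and 3485 bp covered the 3′ part of the gene, and one of 1894 and 1609 bp stood 5.06 kb upstream. The window held 19.5 kb and 20.9 kb of marked sequence, of which 14.3 kb, merged, were nearest to Heyl, and the promoters of its neighbours Nt5c1a and Pabpc4 were marked too.

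At Hey1 a single region lay across the start (chr3:8666023-8668789), with 2767 bp in replicate 1 and 2269 bp in replicate 2. Its covered length, 2.52 kb ± 0.352 (SD, n = 2), was far below that of Heyl, and the difference was many times the replicate spread of either gene. The share of the window was 2.75% for Hey1 and 20.1% for Heyl with the replicates merged. The promoter regions differed less, since that of Hey1 was still longer than in 80.5% of genes in replicate 1 and 72.6% in replicate 2.

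**Figure D3:**
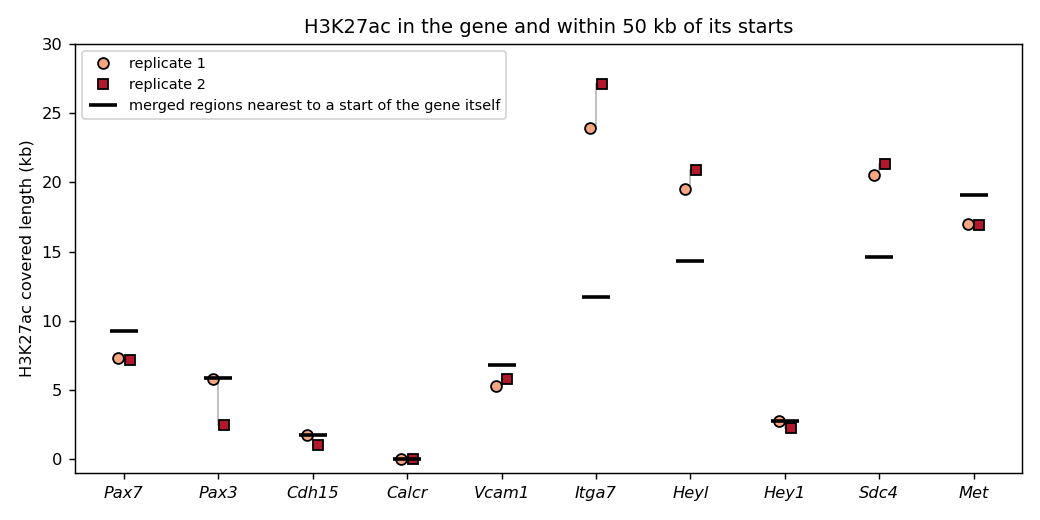
The length under H3K27ac in kb within each gene and 50 kb of its starts is shown for replicate 1 (circles) and replicate 2 (squares), and bars give the merged length of the regions whose nearest start is that of the gene itself. Itga7, Heyl, Sdc4 and Met stand at 16.9 kb or more in both replicates and the other 6 genes at 7.32 kb or less, and the bars of Itga7, Heyl and Sdc4 lie well below their points.

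In order of covered length, Itga7, Sdc4, Heyl and Met formed an upper group, from 16.9 to 27.1 kb in single replicates. Pax7, Vcam1, Pax3, Hey1, Cdh15 and Calcr formed a lower one, from 0 to 7.32 kb. Within the upper group, Sdc4 (20.5 and 21.3 kb) and Heyl (19.5 and 20.9 kb) did not differ beyond their replicate spread. Within the lower group, Pax3 (5.79 and 2.48 kb) overlapped with Vcam1 (5.28 and 5.79 kb) and with Hey1 (2.77 and 2.27 kb), so their order is not fixed by these data. The genes near the top in covered length are those whose windows hold other marked promoters, with the exception of Met. Replicate 1 covered more than replicate 2 in 5 genes and less in 4.

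A Maf peak lay in the window of 4 of the 10 genes, beside 32.2% of all genes, and within 1 kb of a start in 0 of 10, beside 5.58%. The count in the window is near the share of all genes. The 5 peaks were all from replicate 2, and none was in the short list of replicate 1. In the Met intron printed above, the peak lay inside an H3K27ac region called in both replicates, 1498 bp from an internal start and 28939 bp from the 5′ end. It stood at position 5048 of 5467 in its list, and whether the list is ordered by strength is not stated. In Sdc4 the peak lay in an untranslated exon, 17665 bp from the nearest start and 1004 bp outside the nearest H3K27ac region, at position 2718. A second peak in the Sdc4 window (chr2:164455116-164455396) stood between genes, 1708 bp from a start of Sys1 and inside an H3K27ac region. It was at position 2719, next to the first in the list, and position is not read as strength here.

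The peak in the Heyl window (chr4:123202028-123202308) lay in an intron of Nt5c1a, 664 bp from its start. The one in the Cdh15 window (chr8:122897566-122897846) lay in an untranslated exon of Ankrd11, near the edge of the window at 49.7 kb. Of the 46 H3K27ac regions, 3 (6.52%) held a Maf peak, beside 6.87% of all H3K27ac regions, and these stood in the windows of Heyl, Sdc4 and Met. For 2 of the 5 peaks, those within Met and Sdc4, the nearest start belonged to the satellite cell gene. Neither of the Pax genes had a Maf peak in the window, nor had Calcr, Vcam1, Itga7 or Hey1.

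The letters TGCTGAC, a Maf half-site, were in 0 of these 5 peaks and in 22.7% of 5485 Maf peaks searched. The shorter TGCTGA, which every TGCTGAC also contains, was in 1 of 5, the printed site of Sdc4, and in 50.8% of all. CANNTG was in 3 of 5 and in 78.0% of all, with 4 matches in the Met peak, none of them spelled CAGCTG, a form of CANNTG found in 0 of the 5 peaks and in 24.2% of all. Both strands were searched, and a match is a description of the letters and not a bound site.

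The letters GTGGGAA, read by the Notch effector RBPJ, occurred 43 times in the 46 H3K27ac regions, in 18 of them, or 0.365 times per kb beside 0.233 per kb over 52531 regions. They occurred 12 times at Itga7, 11 at Heyl, 6 at Sdc4, 5 at Pax7, 4 at Met, 3 at Hey1, 1 each at Pax3 and Cdh15, and 0 times at Vcam1. The matches were therefore not limited to the Notch targets, and the searched length was 27.3 kb at Itga7, 21.3 kb at Heyl, 23.6 kb at Sdc4 and 2.77 kb at Hey1. It takes in every region of the window, also those nearest to other genes. Regions nearest to the gene itself came to 11.7 kb at Itga7, 14.3 kb at Heyl and 14.6 kb at Sdc4. CAGCTG stood at 0.849 per kb beside 0.656, and TCAGGTT at 0.229 beside 0.161. TGCTGAC (0.170 beside 0.176), TGCTGA (0.713 beside 0.836), CANNTG (5.24 beside 5.43), the AP-1 letters TGANTCA (0.331 beside 0.321) and the Mef2 box (0.178 beside 0.180) were near their density in all regions. These are counts with no test, and regions of 1 gene are not independent of each other.

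The RefSeq promoter table matched 5 of the 10 genes, Pax7, Cdh15, Calcr, Sdc4 and Met. The first promoter listed for each gene was counted, which for Calcr is the printed one, and the second Calcr promoter, left out of these counts, holds 1 CANNTG and none of the other motifs. GTGGGAA was in 1 of these 5, at Met, against 6.39% of 27025 promoters, and TGANTCA was also at Met only, against 7.93%. CANNTG was in 2 of 5, Cdh15 and Met, against 72.1%. TGCTGA was in 0 of 5 against 19.1%, the TGCTGAC within it in 0 against 4.58%, CAGCTG in 0 against 16.1%, TCAGGTT in 0 against 4.04% and the Mef2 box in 0 against 3.26%. In base composition, the 10 H3K27ac regions at the promoters had a median GC content of 52.2% and a CpG observed over expected ratio of 0.310, and the other 36 regions had 47.7% and 0.256. The medians of all H3K27ac regions were 47.8% and 0.237. Among the 5 promoters counted, the CpG ratio was 0.290 at Cdh15, 0.581 at Pax7, 0.645 at Sdc4, 0.794 at Met and 0.798 at Calcr.

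Over the 10 genes, the median share of the window under H3K27ac was 6.28% with the replicates merged, 4.92% in replicate 1 and 5.09% in replicate 2. Over all protein-coding genes it was 5.41%, 4.60% and 4.64%. The satellite cell genes were therefore close to the middle of all genes by this measure, and with only the sequence in both replicates their median, 3.74%, was below the 3.85% of all genes. By other measures the values were higher. The median length of the promoter region was 2798 bp in replicate 1 and 3074 bp in replicate 2, against 1190 and 1277 bp, and the median of the regions nearest to the gene was 8.03 kb, against 1.61 kb. A gene without such a region counts as 0 in these medians. They are therefore not separate from the count of marked promoters, 9 of the 10 genes beside 59.6% of all genes. With the gene and only 10 kb around its starts as the window, the median share was 14.0%, against 5.30%. That window still holds the whole gene. These differences were not tested, since the genes were chosen and are not replicates.

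**Figure D4:**
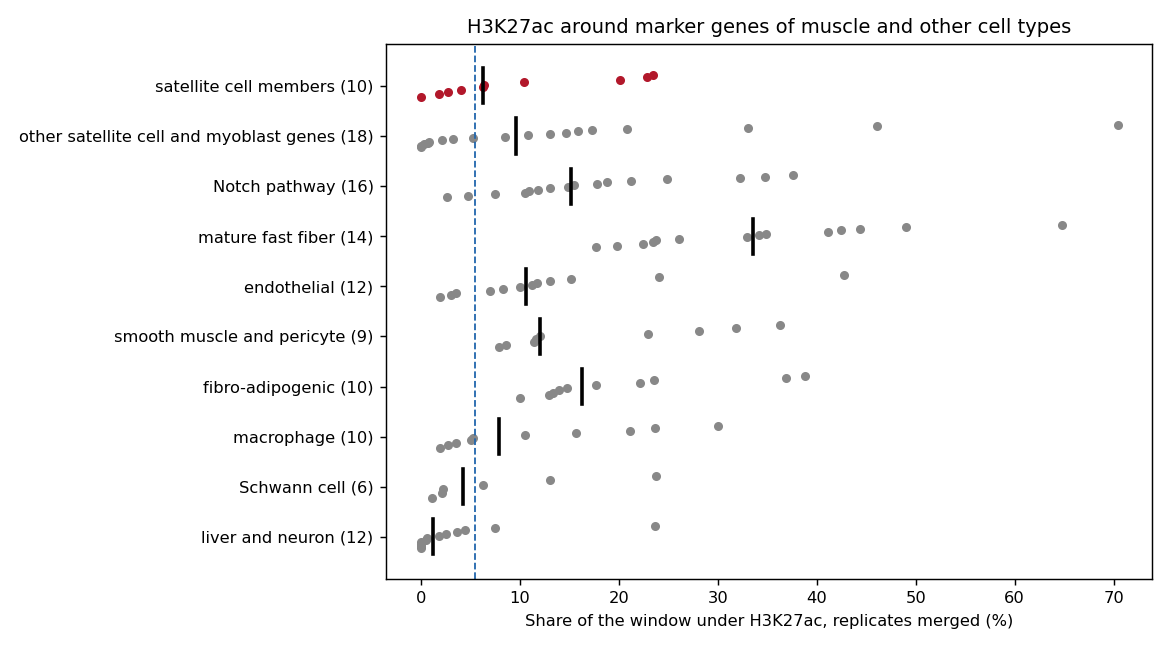
Each point is a gene and shows the share in percent of its window under H3K27ac with the replicates merged, by list with the number of genes in brackets, a black bar marks the median of the list and the dashed line the median of all protein-coding genes, 5.41%. The points of the 10 satellite cell genes run from 0 to 23.4%, while those of the mature fast fiber genes run from 17.7 to 64.8% and most of those of liver and neuron lie left of the line.

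Markers of the other cells in muscle were set beside the 10 genes. A share counts every region in the window, also those nearest to other genes. Another 18 genes of satellite cells and myoblasts had a median share of 9.63%, with the mark at the promoter of 16, in both replicates in 12. Des (70.4%), Myod1 (46.1%) and Fgfr1 (33.0%) led this list. Hgf and Mki67, the latter a marker of cycling cells, had no region at all. By region centre, only 7.01 kb was nearest to a start of Des itself, beside 71.6 kb covered in its window. The call over the Des promoter was nonetheless 11208 bp long in replicate 1 and 60212 bp in replicate 2. Myod1, the myogenic regulator, was marked at its promoter over 9622 bp in replicate 1 and 9808 bp in replicate 2, and had 4 Maf peaks in its window. At Myf5, which quiescent satellite cells transcribe, the promoter was called in replicate 2 only, over 928 bp. Of 16 further genes of the Notch pathway, 15 were marked at the promoter in both replicates, and their median share was 15.2%, led by Nrarp (37.6%), Notch1 (34.8%) and Dll4 (32.2%).

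The 14 genes of mature fast fibers had a median share of 33.5%, led by Tnnt3 (64.8%), Tnni2 (49.0%) and Pvalb (44.4%). The regions nearest to the gene itself came to 0 kb at Tnnt3, 9.29 kb at Tnni2 and 26.5 kb at Pvalb, less than the 74.8 kb and 45.4 kb covered in the windows of Tnnt3 and Pvalb, with a median of 16.7 kb over the 14 genes. All 14 had the mark at the promoter in both replicates, beside 56.4% of all genes. All 14 had a Maf peak in the window and 8 at the promoter, beside 32.2% and 5.58%. Myh4, Actn3, Mybpc2, Atp2a1 and Ckm are in this list, and the paper names them among the loci most strongly bound by Maf in this ChIP-seq. The Maf counts are therefore not independent of the choice of the list. The lowest share among the 14 genes, 17.7%, was above 7 of the 10 satellite cell genes and below Heyl, Itga7 and Sdc4.

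Marker genes of vessels, connective tissue and immune cells carried the mark too. The 12 endothelial genes had a median share of 10.6% (Eng 42.7%, Pecam1 24.0%, Flt1 15.2%) and the 9 of smooth muscle and pericytes 12.0% (Mcam 36.3%, Cspg4 31.8%, Pdgfrb 28.1%). The 10 of fibro-adipogenic cells had 16.3% (Col1a1 38.8%, Pi16 36.9%, Ly6a 23.5%). The promoter was marked in both replicates in each gene of these 3 lists. The 10 macrophage genes had 7.90% (Cd68 30.0%, Spi1 23.6%, Csf1r 21.1%), with 9 marked at the promoter, but only 1.70 kb of 30.0 kb at Cd68 and 5.60 kb of 22.2 kb at Csf1r were nearest to the gene itself. Over the whole lists, the median length nearest to the gene itself was 12.9 kb for endothelial, 10.7 kb for smooth muscle and pericyte, 15.5 kb for fibro-adipogenic and 4.10 kb for macrophage genes, beside the 8.03 kb of the satellite cell genes. The 6 Schwann cell genes had 4.24% (Sox10 13.0%, Mbp 6.28%), with 3 marked at the promoter, of which 2 in both replicates.

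Of 12 genes of liver and neuron, 0 were marked at the promoter, and their median share was 1.24%. Their highest values were at Slc17a7 (23.6%), Syn1 (7.52%) and Snap25 (4.47%), and Alb, Cyp2e1, Serpina1a and Gad1 had none. At Slc17a7 and Syn1 none of the marked sequence was nearest to the gene itself, while at Snap25 all 5.31 kb was. Calcr, with a share of 0%, was like these genes in having no mark at the promoter, while the other 9 were not. By share, Cdh15 (1.77%), Hey1 (2.75%) and Pax3 (4.03%) lay below Snap25, and Vcam1 (6.22%) and Pax7 (6.34%) below Syn1. Met, Heyl, Itga7 and Sdc4 lay above Syn1. All 9 lay above the median of 1.24%. How far the mark at the 9 genes came from satellite cells, and how far from fibers, vessel or other cells, cannot be told apart in these lists.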

How the data were processed

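The authors isolated muscle nuclei, crosslinked and sheared the chromatin and sequenced the immunoprecipitates. Their methods name Trim Galore 0.6.4, Bowtie2 2.3.4.3 and Star 2.7.3a, and the submitters' processing notes name bcl2fastq 2.17, FastQC, Bowtie2 2.3.2, Picard 2.10.3 and HOMER. The paper's text gives a false discovery rate for the Maf peaks. Other settings of the peak caller and the use of the input are not given in the sources used here. Each sample of a target has its own list of intervals with 6 columns, whose score, as deposited by the authors, is 1 in every row, so that it carries no strength. Depth is unknown, and no interval or floor that needs it is given.

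Python 3.11.15 with numpy 2.4.6 was used. Starts were turned into positions counted from 1, and no interval ran past the end of its chromosome in GRCm38. Overlapping or touching H3K27ac regions of both replicates were merged. Genes and 93423 transcript starts came from GENCODE release M21. A window was the gene plus 50 kb around each of its starts, a promoter 1 kb to either side of a start, and an overlap 1 shared base. A percentile is the share of the 21911 protein-coding genes with a lower value, with ties counted in part. The scripts were tested on simulated data. With positions only and no second condition, no test was run, and counts are given beside those of all genes.

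The 10 genes and the lists compared (other satellite cell and myoblast genes, Notch pathway, mature fast fiber, endothelial, smooth muscle and pericyte, fibro-adipogenic, macrophage, Schwann cell, liver and neuron) were chosen with earlier results of these data known. Named in each list were the 3 genes with the largest share of the window under H3K27ac and those with none. Also named were neighbours that share the regions of a window and, for genes with at least 5 marked bins, the 3 genes with the most similar layout over 100 bins of 1 kb around the 5′ end. Those 3 were taken from another chromosome or from over 1 Mb away. Some genes that this rule names are not reported here. Myf5 was named after its values were seen, and Myh4, Actn3, Mybpc2, Atp2a1 and Ckm because the paper names them. Alternatives covered leaving out each replicate, requiring both, windows of 10 and 100 kb, promoters of 500 and 2500 bp, the nearest start, other sets of starts, a larger overlap, regions of at least 1 kb and the first part of the Maf list. The order of that list is not known to follow strength.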

Additional observations from a re-analysis of the deposited data

How the results depend on the processing

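No paired analysis was possible because the results come from no test. The count of 9 genes marked at the promoter was 4 when at least 50% of the region had to lie inside the promoter. A promoter reaches 1 kb to either side of a start, so a long region can fail this setting by its length alone. The count was 8 to 9 under the other alternatives run. The 46 H3K27ac regions became 79 within 100 kb and 30 among regions of at least 1 kb, and were 33 to 46 otherwise. The count of 4 genes with a Maf peak ranged from 0 to 4 when a Maf replicate was left out, 0 being without replicate 2, and was 2 within 10 kb, 2 by the nearest start and 1 in the first part of the list of replicate 2. The 5 Maf peaks ranged from 0 to 5 when a Maf replicate was left out, with 2 in each of these 3 settings and 6 within 100 kb. The median share of 6.28% ranged from 4.92 to 5.09% when an H3K27ac replicate was left out. It was 3.74% in both replicates only, 14.0% within 10 kb, 8.74% within 100 kb, 4.70% with regions of at least 1 kb and 6.56% from the 5′ end only. The medians of all genes were 4.60 to 4.64%, 3.85%, 5.30%, 5.85%, 4.71% and 5.28% in the same settings, so the 10 genes lay below all genes in both replicates only and with the longer regions. The gap was widest with 10 kb around the starts, and the cause was not tested. The windows of 10 and 100 kb also hold the whole gene. With 2 replicates and no depth, a region missing from a list cannot be told from one below the threshold of the caller.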

Other observations

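The layout of H3K27ac over the 50 kb to either side of the 5′ end was compared with that of other protein-coding genes, in 100 bins of 1 kb, by the share of marked bins that a pair has in common (Jaccard index). Only genes on another chromosome or over 1 Mb away were compared. The likeness is a description, over the merged regions of 2 replicates, of where the mark lies. Pax7, with 14 marked bins, was most like Pfkfb1 (0.750), Plxdc2 (0.688) and C1qa (0.667). Met was most like Lmcd1 (0.650) and Creb5 (0.625). Sdc4 was most like Pald1 (0.650), Pdgfrb (0.581) and Sesn1 (0.576), and Itga7 most like Ldha (0.60), Pim3 (0.571) and Gm37419 (0.564). Pax3 was most like Haus5 (0.583), Rbm19 (0.556) and Aida (0.538), and Vcam1 most like Mtmr1 (0.571), Birc6 (0.562) and Dock8 (0.533). Heyl was most like Eprs (0.562), Rpl3l (0.559) and Cox11 (0.556). Cdh15 with 2 marked bins, Hey1 with 4 and Calcr with 0 had too few to rank. None of the named genes belongs to the other satellite cell list, while Pdgfrb is in the list of smooth muscle and pericytes and C1qa in that of macrophages.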
